A study of Danio rerio with 3 samples.

Results

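The genes described here are those of the aryl hydrocarbon receptor (AHR) pathway of zebrafish (Danio rerio): the receptor gene ahr2, the repressor gene tiparp, and the target genes cyp1a, cyp1c1, sult6b1 and nqo1. They were taken by symbol: every probe set of the Affymetrix zebrafish array whose single platform gene symbol was one of these 6 was read. That gave 8 probe sets, 3 of them for cyp1c1, among 8793 genes with a symbol of their own. A probe set pools the signals of several short probes into 1 value. The values came from whole larvae at 192 h post-fertilization (hpf). The control larvae had been kept in zebrafish medium without oil. The early group had been exposed from 0 to 48 hpf, and the late group from 48 to 96 hpf, in both cases to 250 mg of an oil emulsion labelled Gulfport, spread on the floor of cups that held 30 embryos in 100 ml of medium. The emulsion had been gathered at the Gulf of Mexico shoreline in the summer of the Deepwater Horizon blowout and held sand and seawater as well as alkanes and aromatic hydrocarbons. Exposed larvae then spent 144 h (early) or 96 h (late) in clean medium. The labels give no strain and no number of larvae per RNA sample, and no chemical analysis of the emulsion was used here.

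AHR is a transcription factor that lies in the cytosol in a complex with the chaperone HSP90 and its partner p23. On binding a planar aromatic compound such as a dioxin it enters the nucleus, pairs with ARNT and switches on genes whose products oxidise and conjugate the compound. In zebrafish ahr2 encodes the receptor through which dioxin acts on the embryo, and cyp1a is the usual marker of its activity in fish. The pathway limits itself: in mammals, TIPARP ADP-ribosylates AHR and represses it.

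There was 1 array per group, so no spread between larvae or RNA samples was measured, no test was run, and every difference describes 3 arrays. Levels are log2 values made by RMA (robust multi-array average), in which 1 unit is 2-fold, and each comparison is made within a probe set. The array medians were 7.22 (control), 7.20 (early) and 7.23 (late). To see how far probe sets of the same gene disagree, their differences were set against their gene's mean. Only probe sets whose mean over the 3 arrays reached 7.21, the median of all values, were used. The disagreement of dimmer probe sets is thus left out. The SD was 0.16 for late minus control, 0.11 for early minus control and 0.13 for late minus early (666 genes, referred to below as the probe-set SD). It holds no biological variation, and effects of RNA handling or labelling that a gene's probe sets share cancel in it. Over the genes kept for counts the SD of the differences was 0.23, 0.17 and 0.22 in the same order. Bacterial spike-in transcripts, added at hybridisation, read 0.50 lower on the early array than on the control array (SD 0.12 over 18 probe sets) and 0.01 higher on the late array. If the arrays are scaled on them, the median gene of the early array lies 0.50 above control, and all early values below move up by that amount. The 3′ minus 5′ signal of actin, a sign of RNA integrity, was 2.12, 2.02 and 2.28 on the control, early and late arrays, and that of gapdh was 0.379, 0.432 and 0.342. The part of RNA quality in the differences was not tested.

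The first comparison asks which AHR genes differed from control at 192 hpf, 96 h after the late exposure had ended. All 6 read higher on the late array. The 2 cytochrome P450 genes stood farthest from control (25.7-fold for cyp1a and 11.7-fold for cyp1c1), sult6b1 was 2.87-fold higher, and tiparp, ahr2 and nqo1 were between 1.46-fold and 1.99-fold higher. In bulk larvae, more cells that express a gene and more RNA per cell cannot be told apart.

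The receptor gene ahr2 read 8.75 on the control array, 8.99 on the early array and 9.52 on the late array. Its late value was 1.71-fold above control (log2 difference 0.77, against a probe-set SD of 0.16), and 32 genes that passed the filter on dim genes had a larger difference. That filter kept the 5492 genes whose highest value on any array reached 7.21, the median of all values. The repressor gene tiparp read 8.32, 8.53 and 9.31 in the same order. Its late difference of 0.99 (1.99-fold) fell just short of 2-fold, and 17 genes had a larger one. Both the receptor gene and the gene of its repressor were thus lowest on the control array and highest on the late array.

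The cyp1a gene encodes the cytochrome P450 that adds oxygen to aromatic hydrocarbons. Its single probe set read 9.30 on the control array, 10.50 on the early array and 13.98 on the late array. The late array stood apart from the other 2, and the late minus control difference of 4.68 was the largest of the 5492 genes. The brightest probe set of the late array read 15.43, so cyp1a lay below the top of the scale there.

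The cyp1c1 gene encodes a P450 of the same family whose members are expressed in several tissues of fish. In the RefSeq gene table (GRCz12tu assembly) its nearest protein-coding neighbour on one side is its close relative cyp1c2, for which no probe set carried that single symbol, and whether these probes also bind cyp1c2 transcripts was not tested. The brightest of the cyp1c1 probe sets, DrAffx.2.87.S1_at, read 7.60 on the control array, 8.26 on the early array and 11.15 on the late array. A second, from another sequence record, read 5.44, 6.05 and 8.78. The late differences were 3.54 and 3.34 and the early ones 0.65 and 0.61. On the control and early arrays the second probe set lay within the range of probe sets for sequences that zebrafish lacks, which reached 7.24 and 7.36 there. Its differences are thus against readings not above the highest of those sequences. The third, DrAffx.2.87.A1_at, read 5.67, 5.66 and 6.04, with a late difference of 0.36, and stayed under the filter on every array. Its identifier matches that of the brightest one except for the letter A in place of S, and both are annotated to the same sequence record. The foreign sequences had medians between 4.63 and 4.87 on the 3 arrays and reached 7.70 on the late array, so the third cyp1c1 probe set lay within their range on every array. The mean of the 3 probe sets put the late difference of cyp1c1 at 2.42 in place of 3.54.

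Conjugating and reducing enzymes act on the products of the P450 enzymes. The gene sult6b1, of the cytosolic sulfotransferase family, whose enzymes attach sulfate groups to small molecules, read 10.81 on the control array, 10.84 on the early array and 12.33 on the late array. The control and early values were alike and the late value stood apart, with a late difference of 1.52. The gene nqo1 encodes a quinone reductase that in mammals is under the control of both AHR and Nrf2. It read 9.29, 9.44 and 9.83, and its late difference of 0.54 (1.46-fold) was the smallest of the 6, at 3.42 times the probe-set SD.

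**Figure D1:**
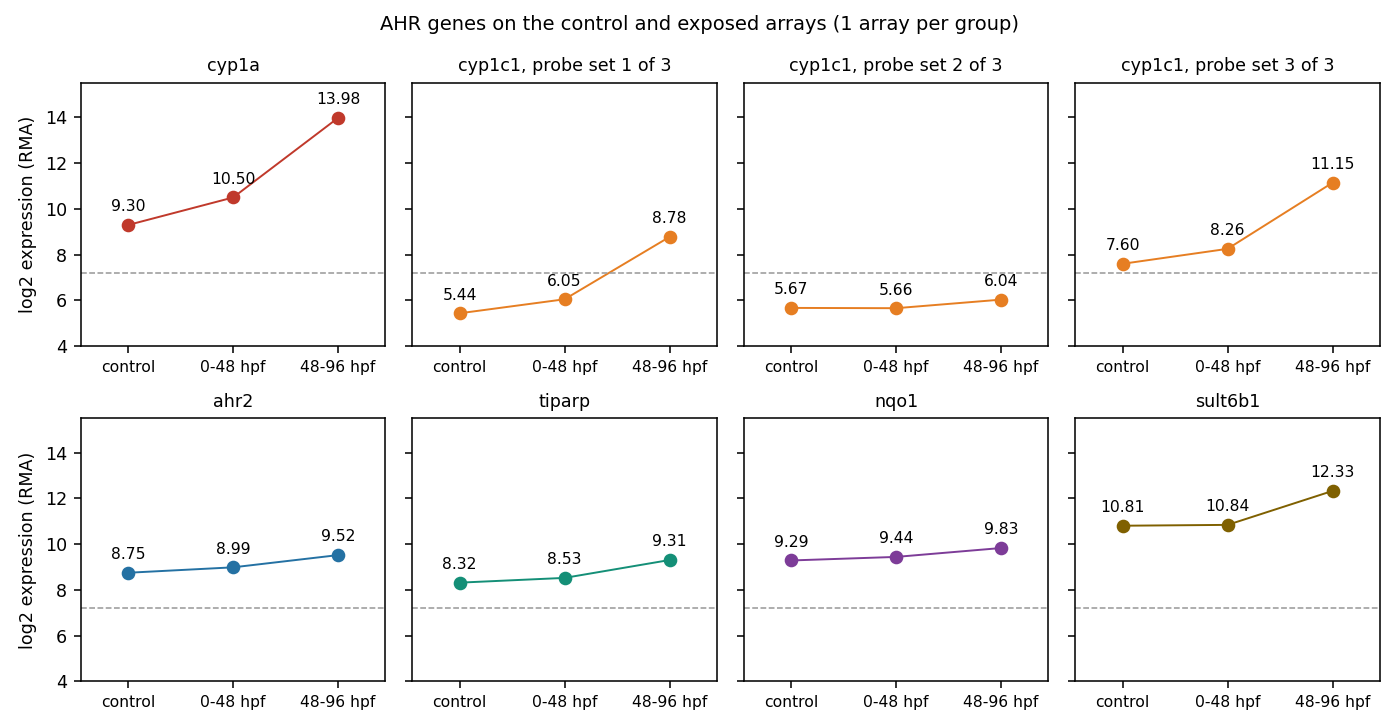
Log2 expression (RMA, vertical axis) of each of the 8 probe sets on the control array and on the arrays of larvae exposed from 0 to 48 hpf and from 48 to 96 hpf. Each point is 1 array with its value printed, and the lines only join the points of a probe set. The dashed line is the filter at 7.21. The cyp1a value goes from 9.30 to 13.98. The second cyp1c1 panel is DrAffx.2.87.A1_at, called the third probe set in the text, and stays between 5.66 and 6.04.

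Counted over the 6 genes, 3 were at least 2-fold higher on the late array than on the control array (cyp1a, cyp1c1 and sult6b1), beside 0.31% of all genes that passed the filter (17 of 5492). At 1.5-fold there were 5, all but nqo1, beside 1.11% of all genes. None of the 6 was lower: all were above control, as were 45.4% of all genes, and by more than the probe-set SD, as were 15.9%. The median late difference of the 6 was 1.25, against -0.02 over all genes, and 0.99 when cyp1a was left out. All 6 passed the filter with the control value of their brightest probe set alone, so the filter did not take any of them in through a high value after exposure. The 6 genes were, however, chosen with earlier results of these data known. Their counts here and in the comparisons below are thus descriptions beside the share of all genes, not a test against it. With quantile normalization (1.04) and with the loess correction (1.03) tiparp passed 2-fold as well, which made the count 4; its lowest value under the other choices was 0.98.

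The second comparison asks the same of the early exposure, which had ended 144 h before sampling. Again all 6 genes read above control, by less: cyp1a was 2.30-fold higher and cyp1c1 1.57-fold, while ahr2 (1.18-fold), tiparp (1.15-fold) and nqo1 (1.11-fold) differed by 0.24, 0.21 and 0.16 on the log2 scale. The sulfotransferase gene sult6b1 differed by 0.04, within the probe-set SD of 0.11. The early difference of cyp1a (1.203) was in place 3 among the 5492 genes and that of cyp1c1 (0.65) in place 13. For the others the place was 291 (ahr2), 402 (tiparp), 700 (nqo1) and 2145 (sult6b1).

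In counts, 1 of the 6, cyp1a, was at least 2-fold higher on the early array, beside 0.091% of all genes, and cyp1a and cyp1c1 were at least 1.5-fold higher, beside 0.401%. Differences above the probe-set SD were found in 5 of the 6 and in 20.8% of all genes, and values above control in 6 of 6 and 49.6%. The median early difference of the 6 was 0.22, against 0.00 over all genes. On the spike-in scale it was 0.72 against 0.50 for the median gene, 2 of the 6 were at least 2-fold higher, and the counts over all genes turned from 5 higher and 2 lower to 33 higher and 0 lower. Both comparisons use the same control array, so a low reading of a gene there raises its difference in both windows.

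**Figure D2:**
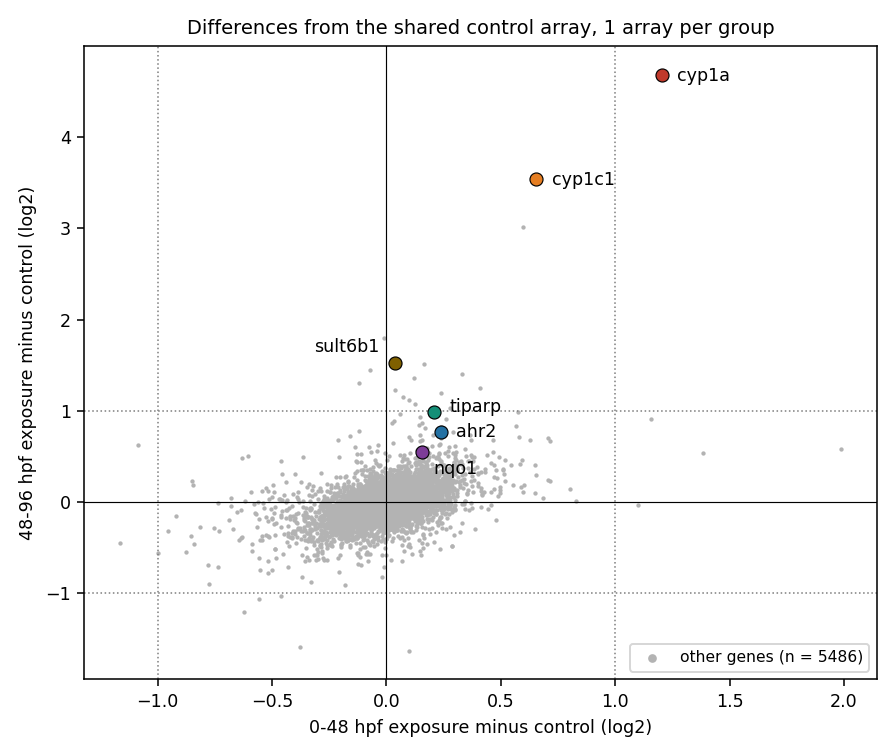
Log2 difference from control on the early array (horizontal axis) and on the late array (vertical axis) for the 6 AHR genes, coloured and named, and the 5486 other genes that passed the filter, in grey; dotted lines mark 2-fold. Each group is 1 array and both axes share the control array; cyp1a (1.203 and 4.68) and cyp1c1 (0.65 and 3.54) lie at the upper right, and sult6b1 lies near 0 on the horizontal axis at 0.04.

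The third comparison sets the exposed arrays side by side and does not use the control array. The exposed groups differ in exposure window and in time in clean medium (96 h late, 144 h early), which cannot be told apart. On the scale as deposited the late array was higher in all 6 genes and in 46.3% of all genes. The difference was 3.48 for cyp1a (11.2-fold), 2.89 for cyp1c1 (7.41-fold), 1.48 for sult6b1 (2.80-fold), 0.78 for tiparp, 0.53 for ahr2 and 0.39 for nqo1. The first 3 were at least 2-fold higher, beside 0.328% of all genes. The differences of cyp1a and cyp1c1 were the largest of the 5492 genes, and sult6b1 was in place 7. On the spike-in scale the late minus early values were 2.97 (cyp1a), 2.38 (cyp1c1), 0.97 (sult6b1), 0.27 (tiparp) and 0.02 (ahr2), nqo1 turned to -0.12, and the median gene lay at -0.52. There 6 genes passed 2-fold upward and 58 downward, in place of 18 and 4. The median over the 6 was 1.13 as deposited, against -0.01 for all genes, and 0.62 on the spike-in scale.

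The order of control, then early, then late was shown by all 6 genes in their brightest probe set, and by 17.9% of all genes. For sult6b1 the first step of that order was 0.04, and the third cyp1c1 probe set broke it by 0.01. On the spike-in scale nqo1 left this order, with the late array below the early one. The P450 genes, ahr2, tiparp and nqo1 had early differences between 0.16 and 1.203 with late ones between 0.54 and 4.68, whereas sult6b1 had 0.04 and 1.52.

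**Figure D3:**
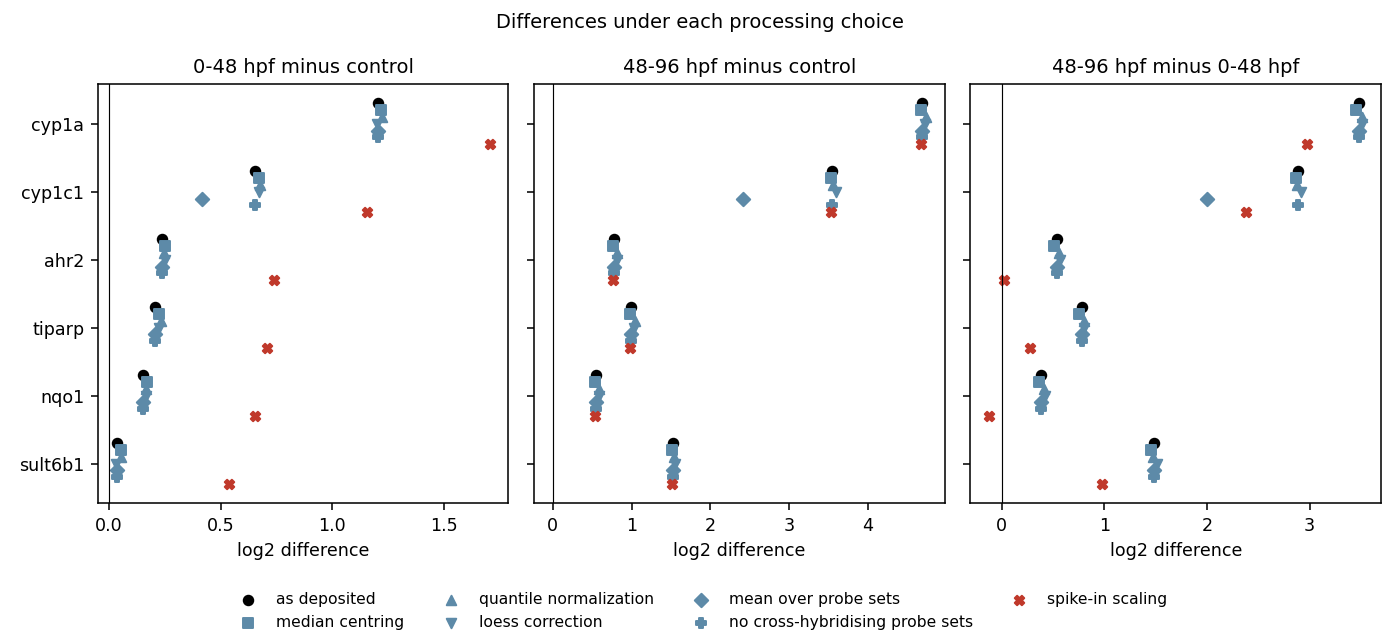
Log2 differences of the 6 genes (rows) in the 3 comparisons (panels, each with its own horizontal scale) under each processing choice, 1 marker per choice, from 1 array per group. Most markers of a gene coincide; the mean over probe sets lowers cyp1c1, and scaling on spike-ins (red crosses) moves every early value up and every late minus early value down, with nqo1 crossing 0 to -0.12 in the last panel.

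The rest of the receptor machinery was read from a list of 14 genes for receptors, partners, chaperones and repressors, of which 9 were on the array and 7 passed the filter. Besides ahr2 and tiparp, none of these 7 was 1.5-fold from control in either window. Such differences were rare over all genes too: 1.11% higher and 0.674% lower late, and 0.401% and 0.601% early. With so few genes, finding none does not set this list apart from other genes. The HSP90 genes hsp90ab1 (-0.05 late, -0.04 early), hsp90aa1.1 (0.07 and 0.02) and hsp90aa1.2 (0.31 and 0.09) encode the chaperone that holds the unbound receptor. The p23 genes ptges3a (-0.12 and -0.10) and ptges3b (-0.09 and 0.08) encode its co-chaperone. On the spike-in scale all of these early values lie above 0. The median late difference of the 5 genes other than ahr2 and tiparp was -0.05. Under the filter were arnt2, which encodes a partner of the receptor (7.02, 7.05 and 7.08 on the control, early and late arrays), and the second receptor gene ahr1a (4.91 on the early and 5.52 on the late array). The values of ahr1a lay within the range of the foreign sequences, so its late difference of 0.53 is that of a dim probe set.

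Of the 5 genes of the CYP1 family 3 were on the array. The third, cyp1d1, read 5.96, 6.27 and 6.57, with differences of 0.61 (late) and 0.31 (early) under the filter.

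Among 20 conjugating and reducing enzymes listed for the AHR gene battery, 7 were on the array and all passed the filter. On the late array 6 of the 7 were above control, beside 45.4% of all genes, and 3 were at least 1.5-fold higher, beside 1.11%: sult6b1, ugdh, which makes the UDP-glucuronate used in glucuronidation (1.03), and gstp1.2, a glutathione S-transferase (0.81). The second probe set of ugdh read 0.62. Without sult6b1 and nqo1 the list's median was 0.35 late and 0.17 early, against -0.02 and -0.001 over all genes. Of those 5 genes 4 were above control late and 5 early, beside 45.4% and 49.6% of all genes. The sulfotransferase genes sult1st1 (-0.07 late and 0.04 early) and sult2st1 (0.24 and 0.08) differed from control by less than sult6b1 did on the late array. The early values of both lay within the probe-set SD of 0.11.

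P450 enzymes need heme and electrons. In a list of 21 genes for other xenobiotic receptors and P450 support, 9 passed the filter, and 2 of these were at least 2-fold higher on the late array, beside 0.31% of all genes. They were alas1, for the enzyme that starts heme synthesis (10.55, 10.71 and 12.06 on the control, early and late arrays), and cyb5a, cytochrome b5, an electron donor (9.35, 9.47 and 10.70). The main electron donor, encoded by pora, differed by 0.06 late and 0.21 early. The median of the list was 0.12 in both windows.

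Genes reported downstream of dioxin-type ligands in zebrafish embryos or regenerating fins made up a list of 17, of which 9 were on the array and 5 passed the filter. Of these 5, sox9b, a regulator of cartilage and heart development, was at least 1.5-fold lower on the late array, as were 0.674% of all genes (8.33, 8.32 and 7.62; difference -0.71). Its other probe set was dim (5.72, 6.16 and 6.13), within the range of the foreign sequences on every array. It read 0.41 above control on the late array, the other direction. The 2 probe sets thus disagree, and which of them follows sox9b was not tested. The late value of the brighter one (7.62) also lay within that range, which reached 7.70 on the late array. The remaining 4 genes of the list that passed the filter were ptgs1, bmp4, cdkn1bb and lfng, with late differences between -0.14 and 0.15. The highest of these differences is that of bmp4, whose values lay within the range of the foreign sequences on every array. The median of the list was -0.09 late and -0.01 early, or 0.49 early on the spike-in scale.

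**Figure D4:**
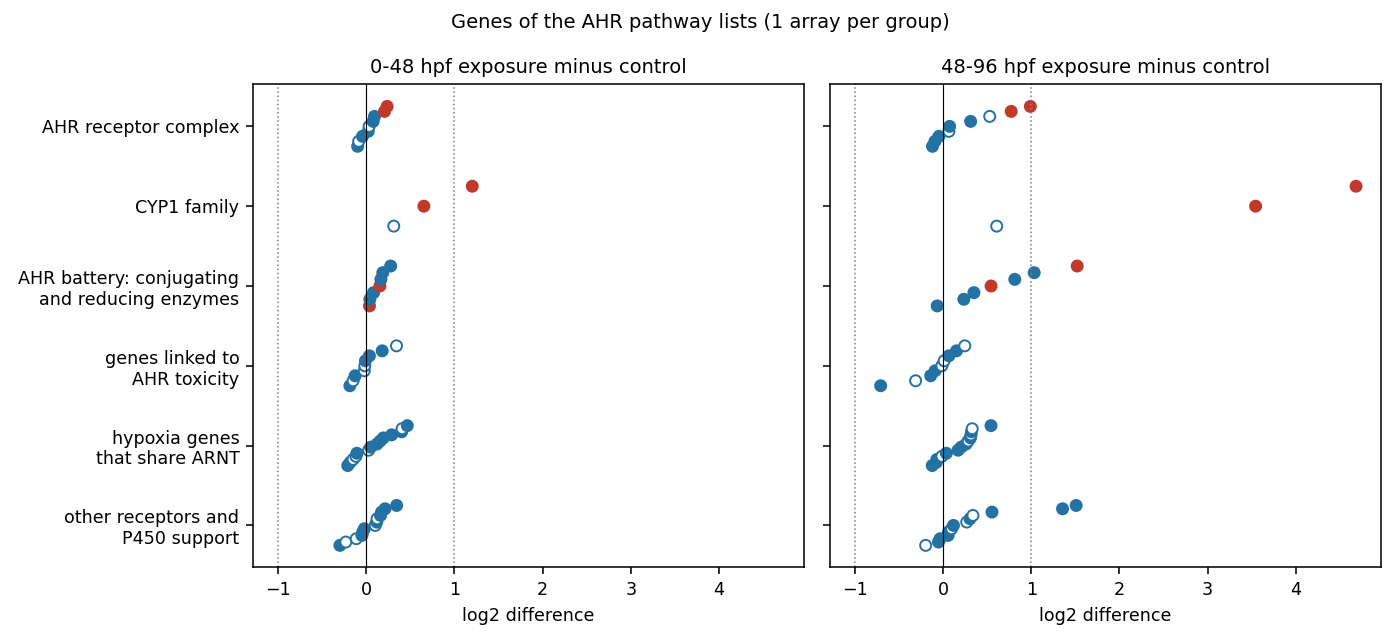
Log2 difference from control on the early array (left) and the late array (right) for the genes of 5 lists around the AHR pathway and of a hypoxia list, 1 point per gene from 1 array per group. Red points are genes of the set of 6, blue points are other genes, open points lie under the filter, and dotted lines mark 2-fold; the receptor complex apart from ahr2 and tiparp lies between -0.12 and 0.53 in the right panel.

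Likeness of pattern was measured as the Euclidean distance between the values of 2 genes over the 3 arrays, each gene centred on its own mean, so that small distances mean steps of like size. The gene nearest to cyp1a was cyp1c1 (distance 0.81). Outside the set the nearest to cyp1a were cyp2k18 (1.196), cyp3a65 (2.05), alas1 (2.29), the clone-named wu:fj05g07 (2.31) and prdx1 (2.40). Nearest to cyp1c1 were cyp2k18 (0.41), cyp3a65 (1.24), alas1 (1.502), wu:fj05g07 (1.51) and opn1mw2 (1.61). The P450 gene cyp2k18 read 6.73, 7.33 and 9.74 on the control, early and late arrays. Its control value lay under the filter and its control and early values within the range of the foreign sequences. Its distances thus rest in part on readings not above the highest foreign sequence. Another P450 gene, cyp3a65, read 9.66, 9.65 and 11.46, with the early array level with control as for sult6b1. The control and early values of opn1mw2 (7.17 and 7.05) also lay within the range of the foreign sequences, so its distance has the same limit as those of cyp2k18. With 3 arrays this measure ranks genes mainly by the size of the step to the late array.

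Marker genes of tissues that could carry these transcripts were read beside them. Of 36 such markers on the array, 33 passed the filter. Liver markers were above control in 9 of 10 cases in each window, beside 45.4% (late) and 49.6% (early) of all genes, with medians of 0.21 and 0.44. On the late array the largest difference among them was that of fabp10a, the liver fatty acid-binding protein (1.77-fold), which was above that of ahr2 (1.71-fold). Hemopexin, hpxa, was the only one at least 2-fold away in either window (log2 difference 1.99 early). Its control and late values (6.75 and 7.33) lay within the range of the foreign sequences. The difference of 1.99 is thus against a reading not above the highest of those sequences. At least 1.5-fold higher were 5 of the 10 early, beside 0.401% of all genes, and 1 late, beside 1.11%. The early ones were fga, fgb, fgg, hpxa and c3a.1, while the other liver markers lay between -0.04 (apoa2) and 0.27 (cp) early. The liver median was above that of the 6 AHR genes early (0.22) and below it late (1.25). The summed level of the liver markers on a linear scale was 1.12 times control on the late array and 1.09 times on the early array. On the control array apoa2 alone made up 53.6% of that sum. Intestinal markers that passed the filter had medians of 0.06 (late, 5 of 8 above control) and -0.24 (early, 1 of 8; the median is above 0 on the spike-in scale), and the summed level of all 10 on the array was 1.06 and 0.91 times control. The ileal bile acid-binding protein gene fabp6 was 1.79-fold higher on the late array, also above ahr2. Heart muscle markers had medians of -0.24 (late, 1 of 4 above control) and 0.21 (early, 4 of 4), with summed levels of 0.985 and 1.16 times control, of which actc1a made up 88.5% on the control array. Epidermal markers had medians of -0.41 (late, 1 of 9 above control) and 0.05 (early, 5 of 9). Their summed level was 0.791 times control on the late array and 1.02 times on the early one, and krt15, a keratin, differed by -1.59 on the late array. For vascular endothelium 2 of the 3 markers on the array passed the filter (kdrl at -0.04 and tie1 at 0.06 on the late array), and the summed level of the 3 was 0.997 times control late and 1.02 times early. The part of tissue makeup in the differences of the 6 AHR genes was not tested.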

How the data were processed

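RNA of 3 groups of whole zebrafish larvae was hybridised to 1 Affymetrix array each. The deposited values are log2 expression values per probe set, made by the authors with RMA per the submitters' processing notes. The RMA version is not given in the sources used. Files give no signal over background and no detection call, so whether a dim transcript was detected cannot be read from them. Precision is limited by the number of arrays.

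Of 15617 probe sets, 10802 had 1 symbol in the platform annotation of 2016, 135 several and 4680 none; 10718 of the first matched the RefSeq gene table (GRCz12tu). For counts, a gene was its probe set with the highest mean, kept if its highest value reached 7.21. Differences and counts at 2-fold, 1.5-fold and 3-fold were computed in Python 3.11.15 (numpy 2.4.6, pandas 2.3.3, statsmodels 0.14.6). Counting at 2-fold and the median difference of shifted genes were run on simulated data, whose noise was below the probe-set SD of these arrays. Median, quantile and loess normalization were included there. Spike-in scaling and the other fold thresholds were not. Alternatives were normalization (median, quantile, loess with span 0.3, spike-ins), filters and probe set choice. The genes, lists and tests were chosen with earlier results of these data known. Genes named from lists were those at least 1.5-fold from control, or the 2 largest. All of the receptor complex, markers at least 2-fold away and the 5 nearest genes were also named. Named after their values were seen were sult1st1, sult2st1, cyp1d1, pora, apoa2, actc1a, fabp10a, fabp6, kdrl and tie1. The same holds for fga, fgb, fgg, c3a.1, cp and the other sox9b-list genes. Promoter and protein sequences were not analysed here.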

Additional observations from a re-analysis of the deposited data

Results flagged for a closer look

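The hypoxia-inducible factor gene epas1b lay on opposite sides of control in the 2 windows, by more than the probe-set SD in each: -0.21 on the early array and 0.17 on the late array, a late minus early difference of 0.38. The difference was not tested, since each window is 1 array. On the spike-in scale its early value was 0.29 above control, so the opposite directions rest on the scale as deposited.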

How the results depend on the processing

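Without spike-in scaling, all 90 recomputed values of the 6 genes stayed above 0. Of these, 87 moved by no more than the probe-set SD. The other 3 were cyp1c1 with the mean over probe sets (2.42 late, 0.42 early, 1.997 late minus early). Part of the count of 87 was fixed in advance. No probe set of the 6 genes was marked as cross-hybridising, and only cyp1c1 had more than 1 to average. The remaining choices re-normalized RMA values whose array medians were already nearly equal. On the spike-in scale the early median of the 6 genes was 0.72, 2 of them and 33 genes in all were at least 2-fold higher and 0 lower. Late minus early, the median of the 6 was 0.62, with 6 genes higher and 58 lower, and nqo1 was at -0.12. List medians on that scale, early and then late minus early, were 0.58 and -0.46 (receptor complex), 1.43 and 2.68 (CYP1 family), 0.66 and -0.12 (conjugating and reducing enzymes), 0.49 and -0.63 (AHR toxicity), 0.64 and -0.44 (hypoxia), and 0.62 and -0.40 (other receptors and P450 support). Without cyp1a the median of the set was 0.99 late and 0.78 late minus early. The CYP1 family median was 3.55, 0.81 and 2.74 (late, early, late minus early) with the mean over probe sets and 3.54, 0.65 and 2.89 without the filter. With a stricter filter (75th percentile), medians of the enzymes were 0.81 late and 0.65 late minus early, and those of the other receptors 0.95 and 0.91. Genes at least 2-fold lower on the late array numbered 2 with that filter, and also 2 when probe sets were averaged. At 1.5-fold, the genes higher and lower were 61 and 37 late, 22 and 33 early, and 67 and 29 late minus early, with 5 and 2 of the set higher late and early. At 3-fold they were 4 and 2, 1 and 0, and 5 and 1, with 0 of the set early. These shifts follow from the construction of each alternative (fewer genes, another probe set value, another threshold or a constant added to an array). List matching through synonyms was added after the data were seen. It left every list median as it was, so it gives no further check of those medians. Motif counts in promoters and their alternative window were not run. No paired analysis was possible because each group holds 1 array.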

Other observations

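ARNT, the partner of AHR, also pairs with the hypoxia-inducible factors, and 20 genes of the hypoxia response were listed for that reason. Of the 14 on the array 10 passed the filter, none of them 1.5-fold from control in either window. Such differences were rare over all genes too: 1.11% higher and 0.674% lower late, and 0.401% and 0.601% early. The median of the 10 was 0.19 on the late array and 0.14 on the early array, against -0.02 and -0.001 over all genes. On each array 7 of 10 were above control, beside 45.4% (late) and 49.6% (early) of all genes. On the spike-in scale the early median was 0.64, against 0.50 for the median gene. The genes farthest from control were igfbp1b (0.54 late and 0.47 early) and igfbp1a (0.32 and 0.40), which encode binding proteins of insulin-like growth factors. On the scale as deposited both stood at nearly the same level on the exposed arrays, with late minus early differences of 0.08 and -0.08. The second probe set of igfbp1a read 0.21 late and 0.46 early.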
